A study of Mus musculus with 9 samples.

Results

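The lysosome genes described here are 36 genes chosen by name, as symbols of cathepsins, other acid hydrolases, lysosomal membrane proteins, proton pump subunits and regulators. All 36 were found by Ensembl identifier in a table of 55421 genes, and all 36 passed the filter on low counts. They comprise 10 proteases, 7 glycosidases, 7 genes of lipid handling, 7 membrane proteins, 3 proton pump genes and 2 regulators.

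The table holds bulk RNA sequencing of hippocampal cells in 9 libraries, 3 from each of 3 groups. The first group is Tmsb4x conditional knockout mice with mild traumatic brain injury (mTBI), the second is wild-type (WT) mice with mTBI, and the third is WT mice with sham surgery. The injury was 1 mild controlled cortical impact, and sham mice had the same surgery without it. All groups carried the red fluorescent protein tdTomato in neurons, and live tdTomato-positive cells were sorted after trypsin digestion. The labels name neither the Cre driver and deleted part of Tmsb4x, nor the time after injury, the age or the sex. No knockout mice with sham surgery were analysed here.

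Lysosomes are acidic compartments in which proteases, glycosidases and lipases digest material delivered by endocytosis and autophagy. A proton pump of the membrane, the V-ATPase, keeps them acidic, and the transcription factor TFEB induces many of their genes through a palindromic promoter element. In brain, neurons depend on lysosomes to clear proteins and lipids, microglia are rich in them, and inherited loss of many of these genes causes lysosomal storage disease with neurodegeneration.

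Some facts of the libraries bear on every value below. Library totals were 36452443 to 39590872 counts. Tmsb4x, the deleted gene, stood at 1.83, 2.79 and 2.77 CPM (counts scaled to a common library size) in knockout mTBI, at 899.5, 553 and 297 CPM in WT mTBI, and at 2.73, 1.68 and 2.23 CPM in the libraries labelled sham. Because sham was at the knockout level, directions against sham are given for the libraries labelled sham. WT mTBI replicate 3 held 835 CPM of Xist, against at most 0.892 CPM elsewhere, and its level of Y-linked Ddx3y was 0.0498 CPM, against at least 49.7 CPM elsewhere, as in a female mouse. Markers of neurons were abundant, but so were those of other cells: 8 oligodendrocyte markers summed to 5185 to 9503 CPM and 8 astrocyte markers to 4149 to 5242 CPM, although the sort was for neurons. The labels do not say whether the libraries of a group came from separate mice. The p-values therefore measure the spread between these libraries.

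The labelled sham libraries resembled one another more than those of the other groups did. Over the 3 libraries of a group, the median coefficient of variation of the 36 genes was 5.93% in knockout mTBI, 10.4% in WT mTBI and 2.82% in labelled sham. Over all tested genes the medians were 11.5%, 15.6% and 6.19% in the same order of groups. The edgeR fit used all 9 libraries together, so tests in every comparison draw on this narrow spread, including knockout mTBI against WT mTBI. The median half-width of the 95% intervals of the 36 genes was log2 0.217 in each comparison.

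Promoter sequences are shown because many lysosomal genes are known to carry the TFEB element. The searched letters were CACGTG, the longer TCACGTGA that contains it, and TCACGTGA with a G before and a C after it. Each reads the same on both strands, so 1 search covers both. RefSeq promoters on GRCm38.p6, from 250 bases before to 50 bases after a start site, were listed for 30 of the 36 genes. CACGTG was found in 10 of 30 (33.3%), against 8.09% of 27025 genes with a listed promoter. TCACGTGA was found in 5 of 30 (16.7%), against 1.12% of all, and the longest form in 0 of 30, against 0.37% of all. Of the 17 CACGTG copies in these 10 promoters, 12 began within 100 bases of the start site. Lamp1 had 4 copies, while Ctsa, Ctsd, Gla and Mcoln1 had 2 copies each. Among the genes nearest to or past the test threshold, Ctsd had copies at -245 and -98 from the start site (the second within TCACGTGA), Glb1 had 1 at -48 and Ctsl 1 at -236, each counted for the first base of the match. Ctsh had no listed promoter. The listed promoters of Cd63, Npc2 and Lamp2 had none. The listed starts of Cd63, Ctsa, Ctsd and Ctsl, among others, lie inside the genes as GENCODE M21 annotates them. So do the Ctsl match, the Ctsd match at -98, both Ctsa matches and the Mcoln1 match within TCACGTGA. The promoters of Ctsd, Glb1 and Cd63 are printed, 2 with a match and 1 without, 5′ to 3′ with CACGTG in capitals.
Ctsd, chr7:142387778-142388077, minus strand: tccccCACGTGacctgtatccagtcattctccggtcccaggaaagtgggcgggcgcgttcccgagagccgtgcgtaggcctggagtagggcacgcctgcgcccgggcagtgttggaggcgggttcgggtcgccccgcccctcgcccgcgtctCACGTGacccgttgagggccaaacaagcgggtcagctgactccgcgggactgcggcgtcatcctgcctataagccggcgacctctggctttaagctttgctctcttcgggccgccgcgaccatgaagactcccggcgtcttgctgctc
Glb1, chr9:114400828-114401127, plus strand: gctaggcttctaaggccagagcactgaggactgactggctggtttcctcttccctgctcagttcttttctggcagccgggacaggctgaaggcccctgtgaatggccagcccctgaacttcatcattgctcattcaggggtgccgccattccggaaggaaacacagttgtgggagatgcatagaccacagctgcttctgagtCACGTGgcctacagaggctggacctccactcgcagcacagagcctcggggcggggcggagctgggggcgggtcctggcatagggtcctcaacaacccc
Cd63, chr10:128909095-128909394, plus strand: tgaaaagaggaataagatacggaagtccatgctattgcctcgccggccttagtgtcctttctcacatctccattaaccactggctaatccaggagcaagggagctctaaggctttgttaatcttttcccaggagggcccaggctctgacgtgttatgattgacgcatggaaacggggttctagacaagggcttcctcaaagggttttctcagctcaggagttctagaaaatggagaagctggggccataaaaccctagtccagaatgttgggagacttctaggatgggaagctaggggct

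The other 4 genes whose promoters held TCACGTGA are shown as short windows with that octamer in capitals. The Ctsa copies stood at -12 and 5 from the start site, and the first is printed. Positions are again counted for the first base of CACGTG, within the octamer. Atp6v0d1 had its copy at -3, Mcoln1 at -45 and Gla at -227 and -194, of which the first is printed.
Ctsa, chr2:164833751-164833776, plus strand: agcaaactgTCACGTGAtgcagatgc
Mcoln1, chr8:3500464-3500489, plus strand: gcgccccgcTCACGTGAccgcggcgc
Atp6v0d1, chr8:105566052-105566077, minus strand: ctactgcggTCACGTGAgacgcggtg
Gla, chrX:134601217-134601242, minus strand: agcgattgaTCACGTGAgcatctacg

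The 10 genes with CACGTG had a median change of log2 0.13 in WT mTBI relative to labelled sham, and the 20 genes with a listed promoter but no match had 0.17. A match is a description of the letters only.

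Together the 36 genes took 0.531% ± 0.0137 of counts in knockout mTBI, 0.56% ± 0.0288 in WT mTBI and 0.502% ± 0.00686 in labelled sham (SD, n = 3 each). Scaled by exon length, Psap, the precursor of the saposins that present sphingolipids to hydrolases, had the highest level, at 638 CPM per kb over the 9 libraries. The proton pump genes Atp6ap1 and Atp6v0d1 followed at 113 and 111 CPM per kb, and Laptm4a, a transmembrane protein gene of late endosomes and lysosomes, had 97.0 CPM per kb. Gaa, the acid glucosidase that degrades glycogen, stood at 84.1 CPM per kb, and the cysteine protease gene Ctsb at 77.2 CPM per kb. At the low end were Ctsh (2.08), Tfeb (1.55) and Ctsk (1.45 CPM per kb), the last known as the collagenase of osteoclasts. Of the 36 genes, 31 lay above the median of all tested genes, 3.00 CPM per kb. The lowest count in any library was 54, for Ctsk.

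**Figure D1:**
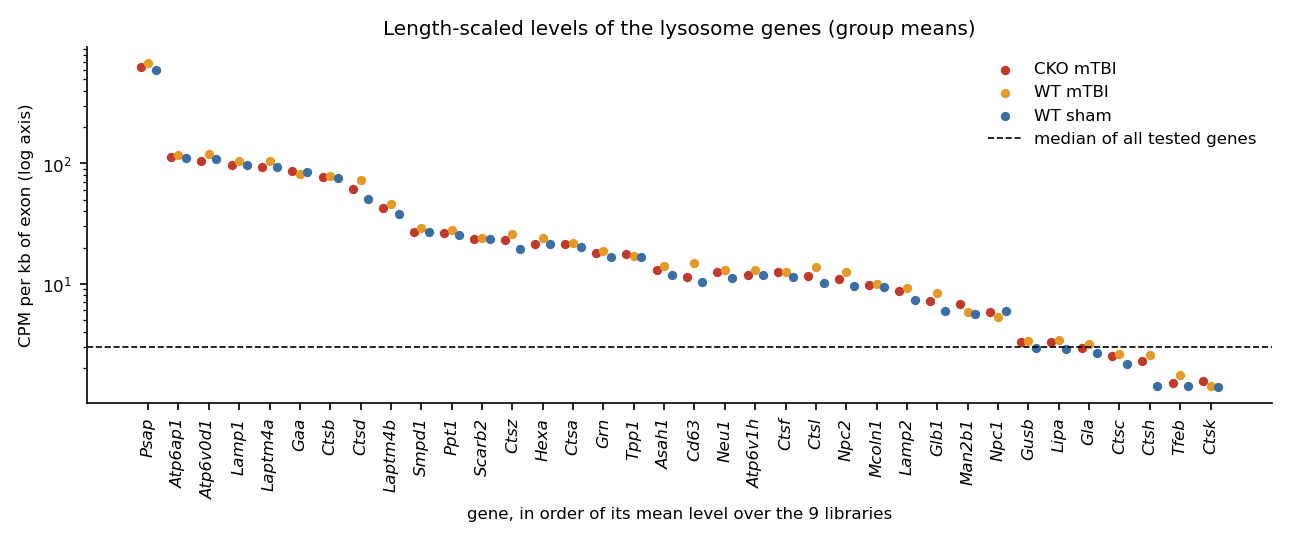
Mean level of each lysosome gene in CPM per kb of exon (log axis), with 1 point for each group (knockout mTBI, WT mTBI, labelled WT sham; n = 3 libraries each), in order of the mean over 9 libraries. Psap stands highest at 638 CPM per kb, and the dashed line marks the median of all tested genes, 3.00 CPM per kb.

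WT mTBI against the libraries labelled sham was the first comparison. By the labels these groups differ in injury, but they also differed in Tmsb4x, so that injury and the level of Tmsb4x cannot be told apart. Cd63 and Ctsh rose in WT mTBI relative to the libraries labelled sham, 1.45-fold and 1.80-fold. No lysosome gene was called lower. That is 2 of 36 genes called at an edgeR adjusted p under 0.05, both higher, against 0.509% of the 20032 tested genes in either direction, 0.384% higher and 0.125% lower. Of the 36 changes, 34 were positive, against 53.0% of all tested genes, and the median was log2 0.16 against 0.018 for all genes. In 15 of 36 genes every WT mTBI library lay above every labelled sham library, against 12.4% of all tested genes, and in 0 of 36 every one lay below, against 11.5% of all. At an unadjusted p under 0.05, 13 genes were higher, against 7.45% of all tested genes, and 0 were lower, against 5.79% of all. In bulk samples, more cells of a type and more RNA per cell cannot be told apart.

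**Figure D2:**
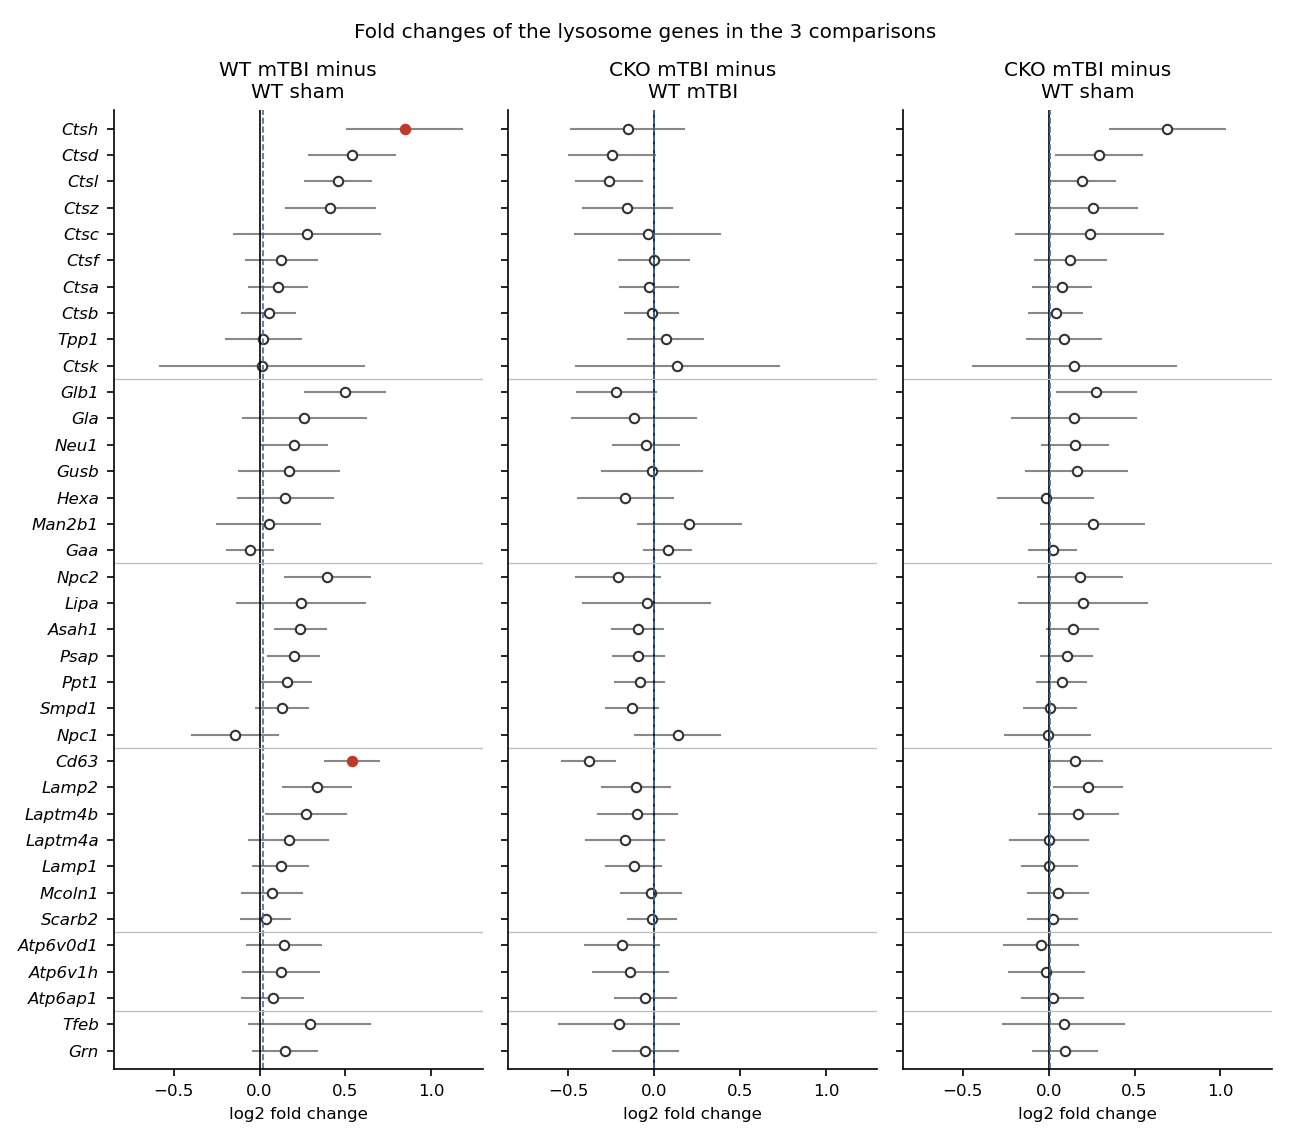
Log2 fold change (point) with its 95% interval (line) for each of the 36 genes, in 3 panels: WT mTBI minus labelled WT sham, knockout mTBI minus WT mTBI, and knockout mTBI minus labelled WT sham. Filled points passed an edgeR adjusted p of 0.05 and dashed lines mark the median of all genes. Only Cd63 and Ctsh are filled, both in the first panel, where 34 of 36 points lie right of 0.

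The 10 proteases were all at positive values, with a median of log2 0.20 and 1 call. Ctsh (ENSMUSG00000032359, GRCm38 chromosome 9, 90054152 to 90076089), a cysteine protease with aminopeptidase activity, had 10.5, 9.94 and 13.8 CPM in WT mTBI, against 6.46, 6.26 and 6.34 CPM in labelled sham. All 3 injured libraries were above the sham libraries, and replicate 3 was the highest. The change was log2 0.84 (SE 0.15, edgeR adjusted p = 0.0445). Ctsh rests on 227 to 555 counts per library and lost its call without WT mTBI replicate 3 (log2 0.68, adjusted p = 0.105) and with the replicate number as a block (adjusted p = 0.0587). It was also lost without knockout replicate 3 (edgeR adjusted p = 0.0616) and without any 1 of the labelled sham libraries (0.227 to 0.26).

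Ctsl (ENSMUSG00000021477, chromosome 13, 64359337 to 64370890), a cysteine endopeptidase, had 102, 81.3 and 85.0 CPM in WT mTBI, against 65.2, 63.9 and 67.0 CPM in labelled sham. The groups did not overlap, and the change of log2 0.45 (SE 0.09, edgeR adjusted p = 0.0514) missed the threshold. Ctsd (ENSMUSG00000007891, chromosome 7, 142375911 to 142388038), the main aspartic protease of lysosomes, had 189, 154 and 173 CPM in WT mTBI, against 118, 122 and 116 CPM in labelled sham. These groups did not overlap either, with log2 0.54 (SE 0.12, edgeR adjusted p = 0.0716). Of the annotated exonic bases, 34.4% of Ctsd and 26.8% of Ctsl are shared with another annotated gene (Gm49369 and Gm47123). Gm49369 lies on the same strand as Ctsd and Gm47123 on the strand opposite to Ctsl, and how reads in the shared bases were divided is unknown here.

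The other proteases did not pass. Ctsz, a carboxypeptidase, had 41.7, 34.3 and 35.5 CPM in WT mTBI, against 27.4, 28.7 and 27.7 CPM in labelled sham (log2 0.41, SE 0.12, edgeR adjusted p = 0.168). Ctsc, which activates serine proteases of granules, was at log2 0.28. Ctsf, a cysteine protease, was at 0.13 and Ctsa, the carboxypeptidase that protects beta-galactosidase and sialidase in a complex, at 0.11. Ctsb (0.053), the tripeptidyl peptidase gene Tpp1 (0.023) and Ctsk (0.015) lay near 0. The 95% interval of Ctsb, the protease gene of highest level, was log2 -0.10 to 0.21.

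None of the 7 glycosidases was called, 6 were positive and their median was log2 0.17. Glb1 (ENSMUSG00000045594, chromosome 9, 114401076 to 114474898), acid beta-galactosidase, had 27.8, 24.9 and 23.5 CPM in WT mTBI, against 17.4, 16.6 and 19.9 CPM in labelled sham. All injured libraries were above sham, with log2 0.50 (SE 0.11, edgeR adjusted p = 0.0698). The sialidase gene Neu1, which works in a complex with Glb1 and Ctsa, had a group mean of 48.4 ± 4.51 CPM in WT mTBI and 42.1 ± 2.59 CPM in labelled sham (log2 0.20). Gla, alpha-galactosidase A, was at log2 0.26, the glucuronidase gene Gusb at 0.17, the hexosaminidase subunit gene Hexa at 0.15, the mannosidase gene Man2b1 at 0.053 and Gaa at -0.055.

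Of the 7 genes of lipid handling, 6 were positive and 0 called, and their median was log2 0.20. Npc2 (ENSMUSG00000021242, chromosome 12, 84754562 to 84773152), the soluble carrier that hands cholesterol to NPC1, had 77.0, 59.4 and 68.9 CPM in WT mTBI, against 50.3, 54.6 and 51.2 CPM in labelled sham. Its change was log2 0.40 (SE 0.11, edgeR adjusted p = 0.163). Its partner Npc1, the membrane cholesterol exporter, had 48.7, 61.7 and 71.2 CPM in WT mTBI, against 67.6, 66.4 and 66.5 CPM in labelled sham, at log2 -0.14. Replicate 1 was low and replicate 3 high for Npc1, so the groups overlapped.

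The acid ceramidase gene Asah1 (log2 0.24), Psap (0.20) and Ppt1 (0.16), the thioesterase that removes palmitate from proteins, were above every labelled sham library in all WT mTBI libraries. Psap, the most abundant, had 2003, 1825 and 1781 CPM in WT mTBI, against 1608, 1637 and 1638 CPM in labelled sham (edgeR adjusted p = 0.246). The acid lipase gene Lipa was at log2 0.24 and the acid sphingomyelinase gene Smpd1 at 0.13.

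Among membrane proteins, Cd63 (ENSMUSG00000025351, chromosome 10, 128900989 to 128912822) encodes a tetraspanin of late endosomes, lysosomes and exosomes. Its values were 58.5, 52.6 and 54.3 CPM in WT mTBI, against 38.5, 36.6 and 38.9 CPM in labelled sham. The groups were well apart, with log2 0.54 (SE 0.07, edgeR adjusted p = 0.0152). Cd63 lost its call without any 1 of the labelled sham libraries (adjusted p = 0.12 to 0.149, log2 0.50 to 0.55), and its pseudogene Cd63-ps held 96 to 191 counts per library, against 1329 to 2281 for Cd63. Lamp2 (ENSMUSG00000016534, chromosome X, 38401357 to 38456454), a membrane glycoprotein needed for autophagosome clearance, had 86.5, 89.7 and 90.6 CPM in WT mTBI, against 67.7, 72.5 and 71.3 CPM in labelled sham. It was at log2 0.34 (SE 0.09, edgeR adjusted p = 0.144).

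Lamp2, Gla and Atp6ap1 are the 3 X-linked members. Without WT mTBI replicate 3, the library with Xist, Lamp2 was at log2 0.32 (adjusted p = 0.23). The transmembrane genes Laptm4b (log2 0.27) and Laptm4a (0.17) had their highest value in WT mTBI replicate 1. Lamp1 was at log2 0.12, the cation channel gene Mcoln1 at 0.070 and Scarb2, the receptor that carries glucocerebrosidase to lysosomes, at 0.036. The 3 proton pump genes lay at log2 0.076 to 0.14, with 0 called. Atp6v0d1, of the membrane sector, had 254, 192 and 197 CPM in WT mTBI, against 191, 199 and 193 CPM in labelled sham, so that replicate 1 alone was above all labelled sham libraries. Tfeb was at log2 0.29 (edgeR adjusted p = 0.453) and Grn, progranulin, at 0.15.

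**Figure D3:**
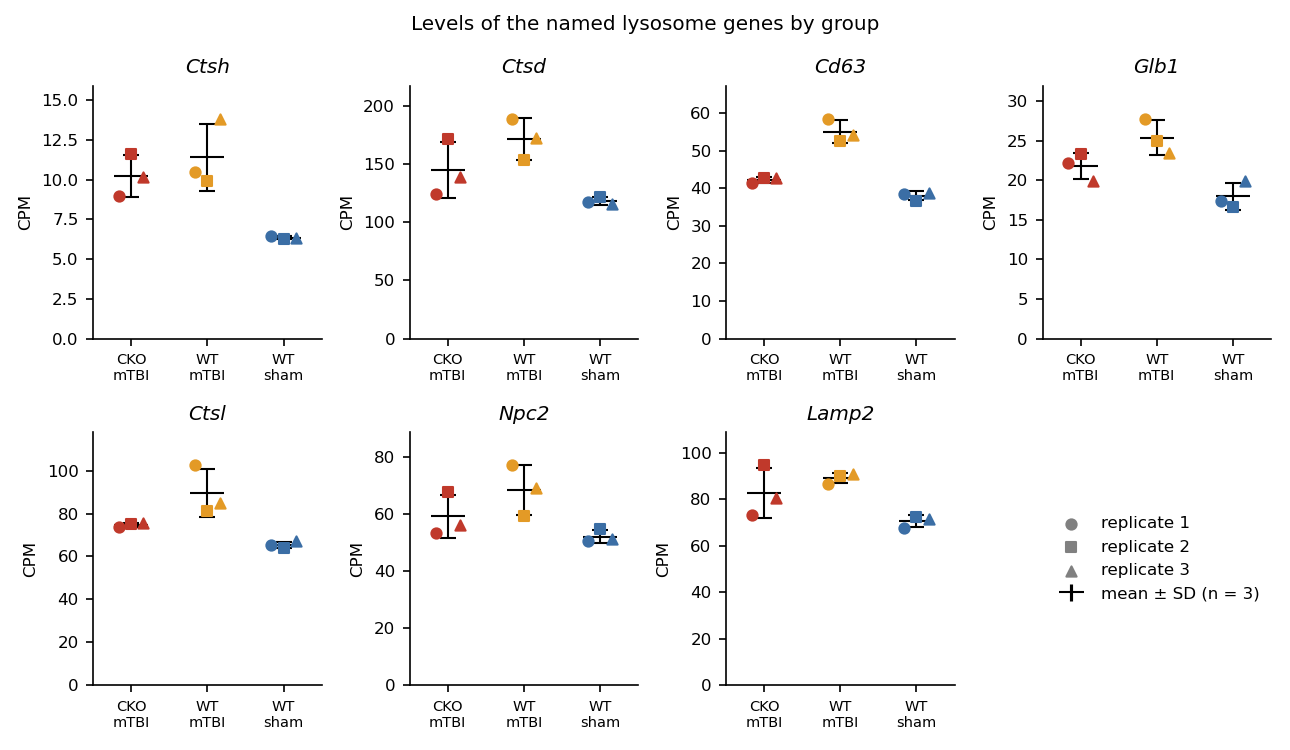
CPM of the 7 named genes in each library (vertical axes from 0), by group: knockout mTBI, WT mTBI and labelled WT sham. Markers are replicates 1, 2 and 3, and bars give mean and SD (n = 3). Cd63 shows 41.4 to 42.8 CPM in knockout mTBI, 52.6 to 58.5 in WT mTBI and 36.6 to 38.9 in labelled sham.

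WT mTBI replicate 1 stood highest among the injured wild-type libraries. It had the highest value of its group in 21 of 36 genes. The median of the 36 genes relative to the labelled sham mean was log2 0.30 there, 0.090 in replicate 2 and 0.19 in replicate 3. In replicate 1 the difference from sham also ran with exon length across the 36 genes (Spearman rho -0.40, across genes of 1 library, which are not independent), against 0.040 in replicate 2 and -0.030 in replicate 3. With the level per kb, rho was instead 0.038, -0.12 and -0.55 in WT mTBI replicates 1, 2 and 3. In knockout mTBI it was -0.46, -0.38 and -0.15. Without replicate 1 the median of the list was log2 0.13, and Cd63, Ctsh and Ctsl were called.

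Choroid plexus transcripts were higher in WT mTBI than in labelled sham, and differed between libraries within knockout mTBI. The 12 choroid markers, of which 8 were called higher in WT mTBI than in labelled sham and none was at 0 in all libraries, summed to 236, 5046 and 4125 CPM in knockout mTBI, 4441 to 6247 CPM in WT mTBI and 221 to 222 CPM in labelled sham. In knockout replicate 1 the choroid sum, 236 CPM, was near that of labelled sham, but single markers differed in both directions. Enpp2 made up most of the sum there, at 178 CPM, against a labelled sham mean of 171 CPM. Otx2 stood at 5.23 CPM and Ttr at 23.0 CPM, against labelled sham means of 0.833 and 17.1 CPM. Clic6 (1.25 CPM) and Cldn2 (0.366 CPM) were lower, against 2.31 and 0.936 CPM. In this library Ctsh stood at 8.97 CPM and Cd63 at 41.4 CPM, both above all labelled sham libraries. The part of choroid transcripts in the rise of both genes was not tested. The 10 microglial markers, with 0 called and none at 0, summed to 264 to 316 CPM in WT mTBI and 289 to 294 CPM in labelled sham. By library they summed to 278, 381 and 289 CPM in knockout mTBI, 287, 264 and 316 CPM in WT mTBI and 294, 289 and 291 CPM in labelled sham. Within each group the libraries stood in the same order for this sum and for Ctsh, while the sum in labelled sham, where Ctsh was lowest, lay within the range of the injured libraries. The oligodendrocyte sum also stood in the order of Ctsh in both injured groups, though not in labelled sham. It was 6413, 7588 and 6496 CPM in knockout mTBI and 7466, 5185 and 9503 CPM in WT mTBI. The choroid sum stood in that order in knockout mTBI only. The part of microglial or oligodendrocyte transcripts in the values of Ctsh was not tested.

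**Figure D4:**
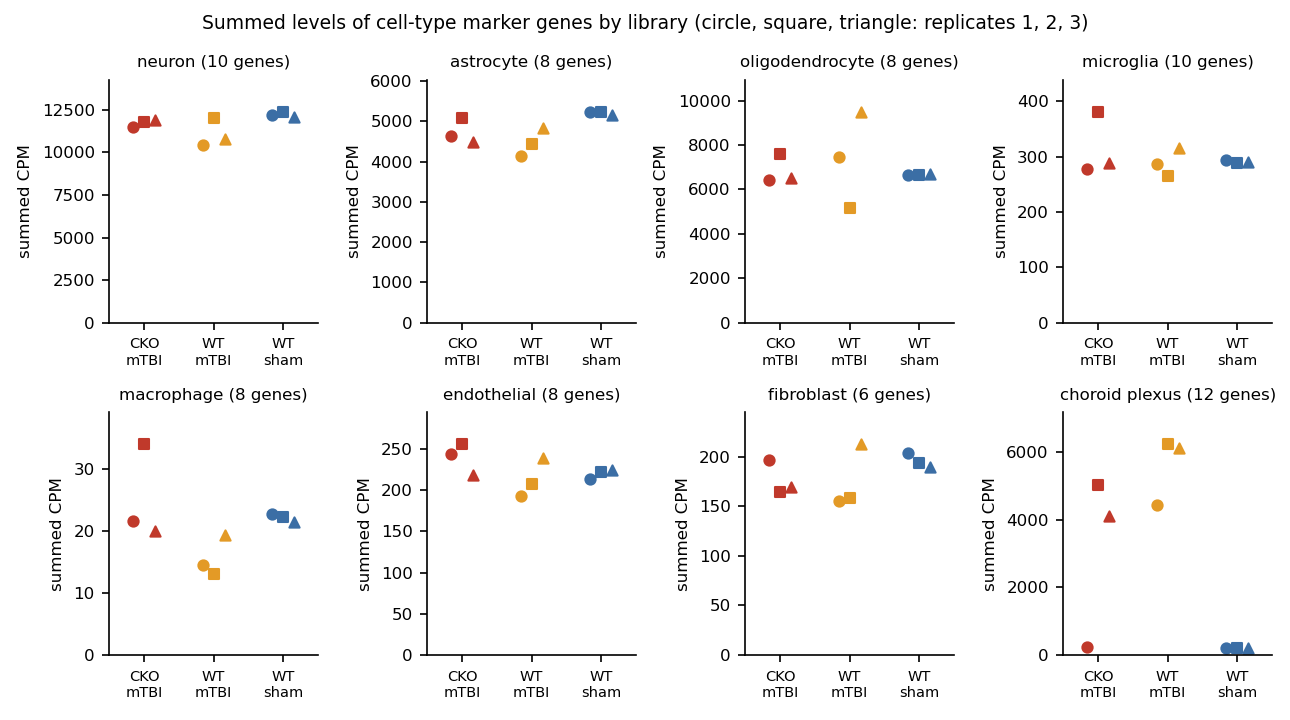
Summed CPM of 8 lists of cell-type marker genes in each library (axes from 0), by group: knockout mTBI, WT mTBI and labelled WT sham. Choroid plexus markers are high in 5 of the 6 injured libraries and stand at 236 CPM in knockout replicate 1, and microglial markers are highest in knockout replicate 2, at 381 CPM.

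The knockout after injury was the second comparison, which asks what loss of Tmsb4x altered in injured mice. No lysosome gene was called, 0 of 36 by edgeR, against 0.015% of all tested genes. At an unadjusted p under 0.05, 2 genes were lower, against 3.35% of all tested genes, and 0 were higher, against 3.25% of all. DESeq2 called 1 gene, Cd63. The fold changes were positive in 5 of 36 genes, against 50.2% of all tested genes, and their median was log2 -0.095 against 0.0012 for all. Every knockout library lay below every WT mTBI library in 5 of 36 genes and above in 0 of 36, each against 4.86% of all tested genes. This comparison shares the WT mTBI libraries with the first, so a high value there moves both.

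Cd63 had 41.4, 42.8 and 42.7 CPM in knockout mTBI, against 58.5, 52.6 and 54.3 CPM in WT mTBI. The groups did not overlap, the change was log2 -0.38 (SE 0.07, edgeR adjusted p = 0.719) and the unadjusted p was 0.000215. DESeq2 gave Cd63 an adjusted p of 0.00486, and 0 of the other alternatives called it. Ctsl had 73.6, 75.1 and 75.4 CPM in knockout mTBI, against 102, 81.3 and 85.0 CPM in WT mTBI (log2 -0.26, SE 0.09, edgeR adjusted p = 0.732). Its 3 knockout values lay close together and all below WT mTBI.

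Ctsd had 124, 172 and 139 CPM in knockout mTBI, against 189, 154 and 173 CPM in WT mTBI, and these overlapped (log2 -0.24, SE 0.11, edgeR adjusted p = 0.732). Glb1 had 22.1, 23.3 and 19.96 CPM in knockout mTBI, against 27.8, 24.9 and 23.5 CPM in WT mTBI, all lower (log2 -0.22, SE 0.10, edgeR adjusted p = 0.732). Npc2 had 53.4, 67.8 and 56.0 CPM in knockout mTBI, against 77.0, 59.4 and 68.9 CPM in WT mTBI (log2 -0.21, SE 0.11). Smpd1 (log2 -0.13) and Asah1 (-0.097) were also lower in every knockout library.

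All 7 membrane genes were at negative values (median log2 -0.11), and the 3 proton pump genes lay at -0.052 to -0.19, with 0 called in both groups. The 5 positive values were Man2b1 (log2 0.20), Npc1 (0.14), Ctsk (0.14), Gaa (0.080) and Tpp1 (0.066). Half-widths of the 95% intervals had a median of log2 0.22. The intervals of all 36 genes ended above a 1.5-fold decrease, and those of 35 ended below a 1.5-fold increase, Ctsk being the wide one. Without WT mTBI replicate 1 the median of the list was log2 -0.033, Ctsl was at -0.15 and Npc2 at -0.12. Without knockout replicate 1, Ctsd was at log2 -0.15, and without knockout replicate 2 it was at -0.38 and Npc2 at -0.32. Lamp2, at log2 -0.11 in this comparison, was at -0.026 without knockout replicate 1 and -0.21 without replicate 2.

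**Figure D5:**
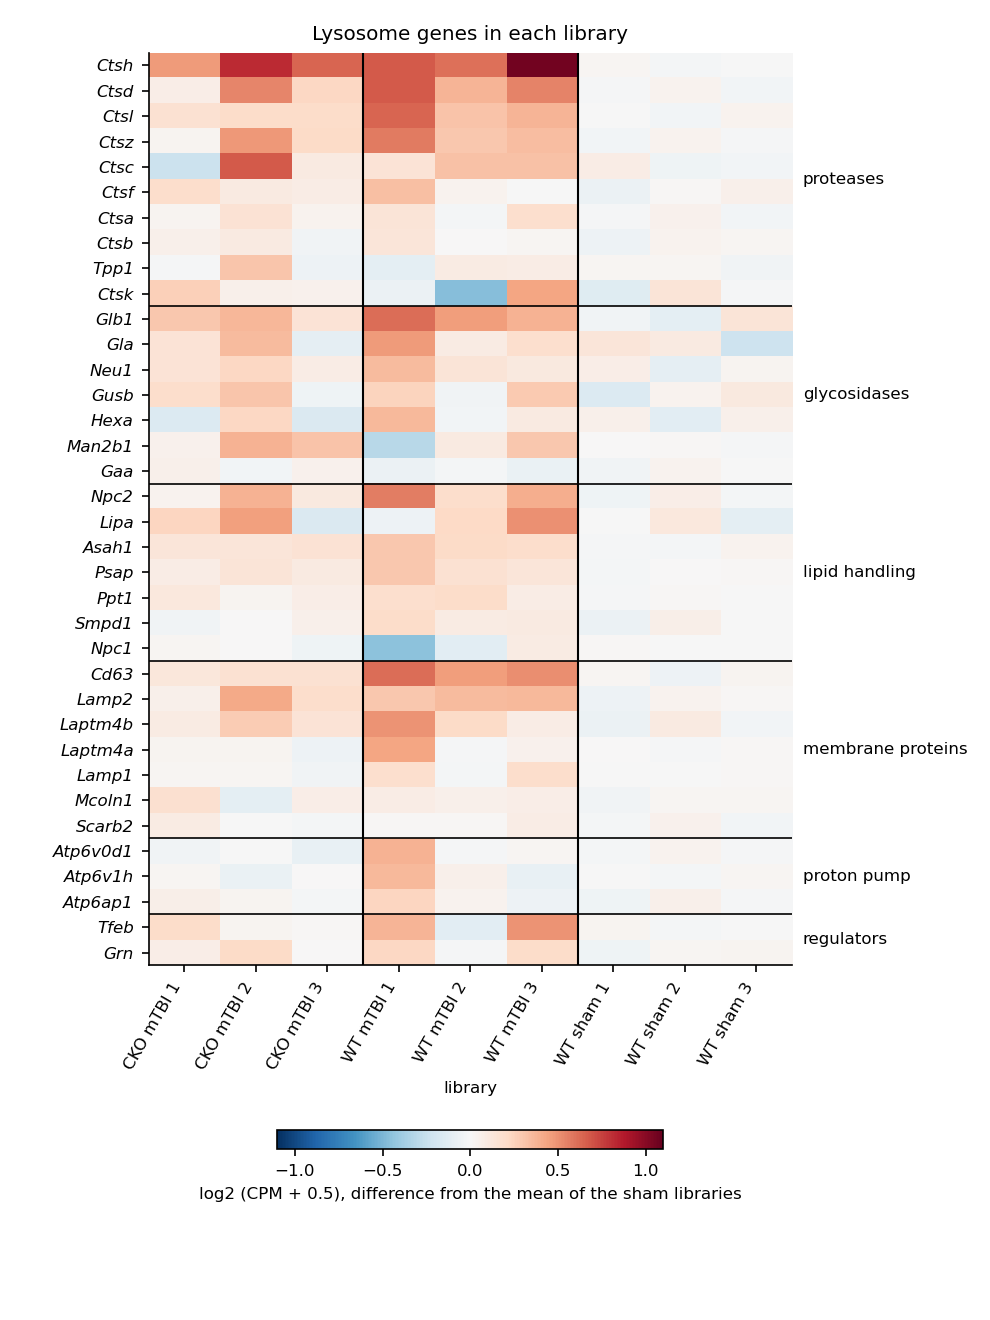
Log2 (CPM + 0.5) of the 36 genes in each of 9 libraries, as the difference from the mean of the labelled sham libraries (red higher, blue lower), by role. Columns run through knockout mTBI, WT mTBI and labelled WT sham. WT mTBI replicate 1 has the highest median, log2 0.30, and Ctsh is red in all 6 injured libraries.

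The injured knockout against labelled sham was the third comparison. By the labels these groups differ in both genotype and injury, which cannot be told apart here. Their Tmsb4x levels were alike, at 1.83, 2.79 and 2.77 CPM in knockout mTBI and 2.73, 1.68 and 2.23 CPM in labelled sham. No lysosome gene passed, 0 of 36 by edgeR, against 0.0699% of all tested genes. At an unadjusted p under 0.05, 5 genes were higher, against 4.58% of all tested genes, and 0 were lower, against 2.62% of all. DESeq2, limma voom with sample weights and edgeR without a count filter each called 1, Ctsh. Of the 36 changes 32 were positive, against 52.6% of all tested genes, and the median was log2 0.12 against 0.0099 for all genes. Every knockout library lay above every labelled sham library in 12 of 36 genes, against 8.75% of all tested genes, and below in 0 of 36, against 8.4% of all.

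Ctsh had 8.97, 11.6 and 10.2 CPM in knockout mTBI, against 6.46, 6.26 and 6.34 CPM in labelled sham (log2 0.69, SE 0.15, edgeR adjusted p = 0.171). All knockout libraries were higher, and knockout mTBI differed from WT mTBI by log2 -0.15 (95% interval -0.48 to 0.17). Glb1, at 22.1, 23.3 and 19.96 CPM in knockout mTBI against 17.4, 16.6 and 19.9 CPM in labelled sham, was at log2 0.28 (SE 0.11, edgeR adjusted p = 0.55). Ctsd was at log2 0.29 (SE 0.11, edgeR adjusted p = 0.576) and Ctsl at 0.19 (SE 0.09, edgeR adjusted p = 0.691). Lamp2 had 73.2, 94.4 and 80.5 CPM in knockout mTBI, against 67.7, 72.5 and 71.3 CPM in labelled sham, so all were higher (log2 0.23, SE 0.09, edgeR adjusted p = 0.579). Cd63 was at log2 0.16 (SE 0.07, edgeR adjusted p = 0.694), with every knockout value above every labelled sham value. The 3 proton pump genes lay between log2 -0.045 and 0.024, and Npc1 at -0.0056.

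Knockout replicate 2 stood apart within its group. It had the highest knockout value in 23 of 36 genes, and the median of the list relative to labelled sham was log2 0.072, 0.16 and 0.053 in replicates 1, 2 and 3. Ctsc had 10.5, 20.2 and 13.4 CPM in knockout mTBI, Ctsz 28.6, 39.1 and 32.4 CPM and Hexa 38.6, 50.1 and 38.4 CPM. In the same library the 10 microglial markers summed to 381 CPM, against 278 and 289 CPM in the other knockout libraries. The 10 markers did not go the same way. C1qa, C1qb and C1qc had 52.9, 58.1 and 49.1 CPM there, against 26.7 to 33.1 CPM in the other knockout libraries. Csf1r (102 CPM, against 78.1 and 85.4 CPM) and Cx3cr1 (55.8 CPM, against 44.9 and 47.9 CPM) were also highest there. So were Aif1 (9.69 CPM, against 6.04 and 3.19 CPM) and Tyrobp (11.4 CPM, against 7.32 and 7.76 CPM). By contrast, P2ry12 had 16.7 CPM, against 30.1 and 28.8 CPM. Tmem119 (16.4 CPM, against 17.5 and 14.3 CPM) and Trem2 (9.03 CPM, against 9.15 and 11.3 CPM) were not higher there than in both others. The 8 markers of border or infiltrating macrophages summed to 34.0 CPM there, against 21.6 and 20.01 CPM. Sums of oligodendrocyte (7588 CPM, against 6413 and 6496 CPM) and astrocyte markers (5091 CPM, against 4641 and 4477 CPM) were also highest there. So were endothelial (256 CPM, against 244 and 219 CPM) and choroid markers (5046 CPM, against 236 and 4125 CPM). Neuron (11764 CPM, against 11500 and 11885 CPM) and fibroblast markers (164 CPM, against 197 and 169 CPM) were not. The part of any of these cell types in the values of replicate 2 was not tested. Without replicate 2 the median of the list against labelled sham was log2 0.072, Ctsd was at 0.15, Lamp2 at 0.12 and Npc2 at 0.069, where all 3 knockout libraries gave 0.29, 0.23 and 0.18.

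Other lysosomal and autophagy genes, 98 in all of which 96 were tested, were read from the same fits. None was called in any comparison by edgeR. In WT mTBI relative to labelled sham, 70 of 96 were positive with a median of log2 0.052, against 53.0% and 0.018 over all tested genes. At an unadjusted p under 0.05, 19 were higher and 3 lower, against 7.45% and 5.79% of all tested genes. Other hydrolases were positive in 25 of 31 (median log2 0.11) and regulators and inhibitors in 13 of 15 (0.14). Other pump subunits were positive in 11 of 17 (0.066), other membrane proteins in 8 of 18 (-0.057) and autophagy genes in 13 of 15 (0.032).

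The hydrolase gene Aga averaged 6.27 ± 0.892 CPM in WT mTBI and 3.87 ± 0.618 CPM in labelled sham (log2 0.70, edgeR adjusted p = 0.135). Mitf, a relative of Tfeb, averaged 12.6 ± 1.26 and 8.31 ± 0.487 CPM in WT mTBI and labelled sham (log2 0.60, edgeR adjusted p = 0.143). In knockout mTBI relative to WT mTBI, 43 of 96 were positive, against 50.2% of all tested genes. The autophagosome protein gene Map1lc3a averaged 80.8 ± 5.17 CPM in knockout mTBI and 109 ± 24.4 CPM in WT mTBI (log2 -0.43), Lamtor2 28.4 ± 1.07 and 34.0 ± 5.33 CPM (-0.26), and Laptm5 35.9 ± 7.38 and 28.6 ± 4.33 CPM (0.33), each at an edgeR adjusted p of 0.732. By library, Map1lc3a had 81.0, 85.9 and 75.5 CPM in knockout mTBI and 137, 94.99 and 94.8 CPM in WT mTBI, with WT mTBI replicate 1 high. Lamtor2 had 40.1, 30.7 and 31.1 CPM in WT mTBI, again highest in replicate 1, and Laptm5 had 31.7, 44.5 and 31.7 CPM in knockout mTBI, highest in replicate 2.

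In knockout mTBI relative to labelled sham, 60 of 96 were positive with a median of log2 0.025, against 52.6% and 0.0099 over all tested genes. The microglial protease gene Ctss averaged 62.5 ± 17.5 CPM in knockout mTBI and 41.8 ± 2.14 CPM in labelled sham (log2 0.58, edgeR adjusted p = 0.388), the knockout libraries being at 46.0, 80.8 and 60.6 CPM. The fucosidase gene Fuca1 averaged 39.3 ± 4.95 CPM in knockout mTBI and 32.2 ± 1.44 CPM in labelled sham (log2 0.29, edgeR adjusted p = 0.487).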

How the data were processed

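The authors deposited unnormalised whole-number counts for each Ensembl gene, made with featureCounts 2.0.6 over exons of Ensembl release 98 on GRCm38, per the file headers. The command set no option for counting pairs, strand or multi-mapping reads, so under the defaults of that version each mate adds 1, either strand counts and reads mapped to several places add nothing. Trimming with Trim Galore and alignment with HISAT2 are among the tools in the submitters' processing notes. Positions and exon lengths come from GENCODE M21 (GRCm38), which matched 55154 genes.

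Genes were filtered with filterByExpr, which left 20032, scaled by TMM and fitted in edgeR 4.0.16 (R 4.3.3), with all 9 libraries and group as the only term. The two-sided quasi-likelihood F test was adjusted by Benjamini-Hochberg over all tested genes, and a gene was called under 0.05. Values are given for every library for genes called in any comparison and the 5 of smallest p in each, which made 7 genes, and other lysosomal genes are the 3 of smallest p in each, of which 1 gene is not reported here. Library values of Atp6v0d1, Ctsc, Ctsz, Hexa, Npc1 and Psap, and the promoters printed, were chosen after their values were seen. The members and lists were chosen with earlier results of these data known. Alternatives were RLE or no scaling, DESeq2 1.42.0, limma 3.58.1 voom with sample weights, other filters, 6 libraries, a replicate block, halved counts, summed sham and 9 libraries left out in turn.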

Additional observations from a re-analysis of the deposited data

How the results depend on the processing

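Over 19 alternatives for each result, the values of the 7 named genes kept their direction except Ctsh in knockout mTBI relative to WT mTBI, at log2 0.012 without WT mTBI replicate 3 (-0.25 to 0.012 with 1 library left out, edgeR adjusted p = 0.579 to 0.979). Medians of the 36 genes lay at log2 0.13 to 0.22 for WT mTBI relative to labelled sham, at -0.12 to -0.033 for knockout mTBI relative to WT mTBI and at 0.072 to 0.14 for knockout mTBI relative to labelled sham, the middle range ending at log2 -0.033 without WT mTBI replicate 1. The count of called genes for WT mTBI relative to labelled sham, 2 in edgeR, was 5 in DESeq2, 9 in limma voom with sample weights, 7 without a count filter, 1 with the stricter filter, 1 with the replicate block and 0 with the sham libraries summed. It was 0 to 4 with 1 library left out, 0 without each of the labelled sham libraries, 1 without knockout replicate 3 or WT mTBI replicate 3 and 4 without knockout replicate 1. Over all genes this comparison had 102 calls in edgeR, 676 without a count filter, 64 with the stricter filter, 1 with the sham libraries summed, 5, 5 and 9 without labelled sham replicate 1, 2 or 3, and 26 to 252 without 1 of the other libraries. Cd63 was called in 15 of 19 alternatives and Ctsh in 11 of 19, in neither case after a sham library was dropped or the sham libraries were summed, whereas Cd63 was called without each of the 6 injured libraries. For knockout mTBI relative to WT mTBI the count of 0 was 1 in DESeq2 and 0 to 0 with 1 library left out. For knockout mTBI relative to labelled sham it was 1 in DESeq2, 1 in limma voom with sample weights and 1 without a count filter, and 0 to 0 with 1 library left out. Over all genes, DESeq2 called 541, 18 and 226 in the 3 comparisons in this order and limma voom with sample weights 722, 4 and 279, against 102, 3 and 14 in edgeR. Libraries with the same replicate number correlated at -0.089 to 0.073 in their deviations from group means, and those with different numbers at -0.114 to 0.123. No pairing by number was seen, but with 3 libraries a group this check cannot exclude it. With the replicate number as a block, 107, 3 and 13 genes were called in all. Causes were not tested. Depth limits Ctsk most, with 54 counts in 1 library and a 95% half-width of log2 0.59.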
